A study of Ovis aries with 9 samples.

Results

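Voltage-gated sodium channels (NaV) and voltage-gated calcium channels (CaV) are the membrane pores that open when a neuron depolarises. Each channel is built on a large pore-forming alpha subunit, and auxiliary subunits set how much of it reaches the membrane and how fast it opens and closes. In the hypothalamus these channels carry the action potentials of neurosecretory neurons, and calcium entry through them triggers the release of hormones such as GnRH. The genes described here were all those with a RefSeq sheep symbol that starts with CACN, or with SCN followed by a number, and they were taken by name. They numbered 37 of the 21284 protein-coding genes with a RefSeq transcript in the data, of which 25 encode calcium channel subunits or their relatives and 12 encode sodium channel subunits. The pore genes CACNA1E and SCN3A were not among the 37 symbols matched, so rankings of pores cover only the genes matched.

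Hypothalamic tissue was taken from 9 Dolang sheep, with 3 animals at prepuberty (120 to 121 days of age), 3 at puberty (130 to 131 days) and 3 at postpuberty (150 to 151 days), and 1 library was sequenced per animal. The authors judged the stage from behaviour towards a ram and from the vulva, so stage and age cannot be told apart. Expression is given in FPKM, the fragments of a transcript scaled to its length and to the mapped fragments of the library, and was summed over the RefSeq transcripts of each gene (186 transcripts for the 37 genes). The comparisons address whether channel subunits changed across the onset of estrus.

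The libraries held 19347227 to 23966519 mapped reads. Puberty 2 stood apart, with 42441 transcripts above 0 against 67824 to 71787 in the other 8 libraries. Its FPKM over all transcripts summed to 599726, against 359588 to 398109 in the other 8. In it, 5 endothelial markers summed to 653 FPKM, against 81.1 to 163 FPKM in the other 8. The stage comparisons are therefore given with and without Puberty 2. The labelled tissue was checked against 13 marker genes of the hypothalamus. Of these, 5 (NKX2-1, SIM1, RAX, AGRP and GHRH) were below 0.5 FPKM in all 9 libraries, whereas TRH ranged from 0.824 to 36.8 FPKM, NPY from 0.222 to 22.7 FPKM, and POMC, also a pituitary gene, from 2.09 to 22.4 FPKM. AVP had 10.4 FPKM in Puberty 2 and 0.551 to 3.15 FPKM in the other 8 libraries. OTP reached 4.91 FPKM and OXT 4.81 FPKM. Markers of neighbouring tissues varied between libraries, with summed levels of 0.125 to 203 FPKM for 6 pituitary genes (highest in Postpuberty 1), 9.57 to 7609 FPKM for 3 choroid plexus genes (highest in Puberty 3) and 0.978 to 54.3 FPKM for 5 cortical genes (highest in Puberty 3). The sums were 11.5 to 49.5 FPKM for 4 striatal genes (highest in Puberty 2) and 2.87 to 15.7 FPKM for 4 thalamic genes (highest in Postpuberty 2). Of the thalamic genes, LHX9 had 3.07 FPKM in Prepuberty 2, 1.85 in Postpuberty 2 and at most 0.418 elsewhere. TCF7L2 was highest in Postpuberty 2 and GBX2 in Postpuberty 3. The part of these markers in the results was not tested. The summed level of 8 neuron markers was 641 FPKM in Prepuberty 1, 456 in Postpuberty 1 and 320 in Puberty 2, and between 1189 and 1802 in the other 6 libraries. In bulk tissue, fewer neurons and less RNA per neuron cannot be told apart.

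Of the 37 genes, 29 reached a mean of 0.5 FPKM in at least 1 stage and were kept for testing, or 28 without Puberty 2. The 8 that did not included CACNA1S and SCN4A, known from skeletal muscle, CACNA1F, known from the retina, SCN11A, known from sensory ganglia, and CACNA2D4, CACNG1 and CACNG6. Their highest mean over the 8 libraries other than Puberty 2 was 0.276 FPKM, in CACNA1S. The auxiliary subunits were more abundant per length than the pores. The 20 auxiliary genes had a median of 4.70 FPKM and the 16 pore genes a median of 0.649 FPKM over these 8 libraries. With transcripts summed, the most abundant pore gene was CACNA1G, at 5.23 ± 3.16 FPKM (SD, n = 8). With only the transcript of highest mean for each gene, CACNA1G was at 0.492 FPKM, below SCN1A at 2.48, SCN2A at 1.55 and CACNA1I at 0.960 FPKM.

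The sodium channel pores carry the upstroke of the action potential. Among them SCN1A, a brain channel known from inhibitory neurons, was the most abundant. It was listed at 0, 5.01 and 2.77 FPKM at prepuberty, 4.17, 0 and 1.28 FPKM at puberty, and 0.886, 4.97 and 2.54 FPKM at postpuberty. The 3 lowest libraries were thus Prepuberty 1, Puberty 2 and Postpuberty 1, in 3 different stages, and these are also the 3 libraries with the lowest neuron markers. SCN2A, a brain channel known from excitatory neurons, had 0.0119, 14.0 and 0.494 FPKM at prepuberty, 0.0112, 0 and 0.0914 FPKM at puberty, and 0.167, 0.328 and 2.25 FPKM at postpuberty. Its mean rested on Prepuberty 2, where 1 of its 4 transcripts had 12.4 FPKM while being listed at 0 in the other 8 libraries. SCN8A, the channel of axon initial segments and nodes, ranged from 0.187 to 3.20 FPKM over the 8 libraries and was highest in Puberty 3. SCN9A, best known from sensory neurons, ranged from 0.118 to 2.42 FPKM over the same 8 libraries and was highest in Postpuberty 3. The pores therefore differed in which animal was highest, and SCN1A was the most abundant NaV pore in 5 of the 8 libraries, SCN8A in 2 and SCN2A in 1.

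SCN7A encodes NaX, a relative of the sodium channels known as a sensor of sodium concentration. It had 1.82, 0.579 and 0.203 FPKM at prepuberty, 0.367, 0 and 0.699 FPKM at puberty, and 0.234, 0.266 and 1.21 FPKM at postpuberty. Its highest value was in Prepuberty 1, where SCN1A was listed at 0. SCN7A, SCN9A, SCN1A and SCN2A lie within 1 stretch of chromosome 2 of the ARS-UI_Ramb_v3.0 assembly, from chr2:143098789 to chr2:144310484. Of these 4 neighbours, SCN1A and SCN2A were highest in Prepuberty 2, SCN7A in Prepuberty 1 and SCN9A in Postpuberty 3.

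The NaV beta subunits are single-pass membrane proteins that modulate sodium channel gating and also act in cell adhesion. SCN4B, which is tied to the resurgent sodium current, had 1.93, 36.6 and 30.5 FPKM at prepuberty, 27.98, 2.39 and 45.7 FPKM at puberty, and 2.56, 30.8 and 20.6 FPKM at postpuberty. SCN4B fell into a low set of 3 libraries, 1 per stage, and a high set of 6. The low set was Prepuberty 1, Puberty 2 and Postpuberty 1, the libraries with the lowest neuron markers, whose part in the result was not tested. Over the 8 libraries, SCN2B ranged from 5.27 to 63.0 FPKM and SCN3B from 5.25 to 36.7 FPKM, with the highest value of each in Prepuberty 2 and the lowest in Prepuberty 1.

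The ratio of summed SCN2B, SCN3B and SCN4B to 6 summed NaV pores was 6.55 to 15.7 over the 8 libraries, with a median of 11.5. In Puberty 2 it was 77.8, since these pores summed to 0.0684 FPKM there while the 3 beta subunits summed to 5.32 FPKM.

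**Figure D1:**
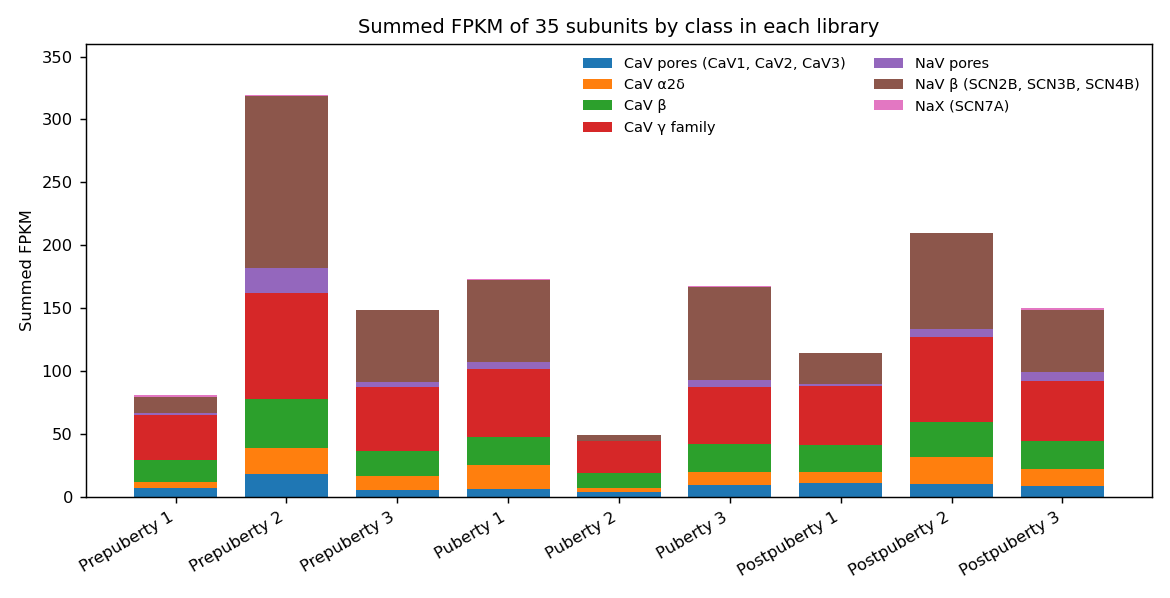
Summed FPKM of 35 subunits in each library, stacked by class (vertical axis, FPKM, starting at 0). The sum was 319 in Prepuberty 2 and 81.0 in Prepuberty 1, and the CaV gamma family summed to 84.1 and 36.1 in these libraries.

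The calcium channel pores divide into L-type (CaV1), P/Q-, N- and R-type (CaV2) and T-type (CaV3). L-type channels open at strong depolarisation and couple activity to gene expression and secretion. P/Q- and N-type channels trigger transmitter release at synapses, and no R-type gene was among the members. T-type channels open near the resting potential and support burst firing. T-type channels were the most abundant, and CACNA1G was the highest T-type gene in all 8 libraries, with 80.2% of the class. CACNA1G (chr11:35833957-35895923) had 2.38, 11.2 and 2.08 FPKM at prepuberty, 2.78, 0 and 4.02 FPKM at puberty, and 6.42, 7.93 and 5.06 FPKM at postpuberty. All 3 postpuberty libraries lay above all 3 puberty libraries, while the prepuberty libraries lay on both sides. Its FPKM was spread over 24 transcripts, none of which held more than 9.40% of its mean over the 8 libraries (in a single library up to 36.3%, in Prepuberty 1), and the lead of CACNA1G depended on summing them. With only the transcript of highest mean for each gene, CACNA1G held 28.5% of the class over the 8 libraries and was highest in 3 of them, whereas CACNA1I held 55.7% and was highest in 4. CACNA1I, the next T-type gene in level, had 0.451, 2.40 and 0.272 FPKM at prepuberty, 0.0709, 0.852 and 2.89 FPKM at puberty, and 0.0589, 0.0274 and 1.51 FPKM at postpuberty. CACNA1H was, of the 29 genes, the only member with its highest value of all 9 libraries in Puberty 2, beside 20.2% of all genes. It had 1.26 FPKM there against 0.149 to 0.534 FPKM elsewhere. CACNA1H was among the 29 only through that library, since its puberty mean was 0.546 FPKM with Puberty 2 and 0.187 FPKM without it.

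The L-type pores were low. CACNA1C, the main L-type channel of neurons and heart, had 1.39, 0.0495 and 1.09 FPKM at prepuberty, 1.66, 0 and 0.804 FPKM at puberty, and 1.76, 0.0762 and 0.0678 FPKM at postpuberty. It split into libraries at 0.804 FPKM or above and libraries at 0.0762 FPKM or below, and each stage had libraries of both sets. Prepuberty 1 and Postpuberty 1, which were low for SCN1A and SCN4B, were among the high libraries for CACNA1C. CACNA1D, an L-type channel that opens at less depolarised potentials and supports pacemaking, had 0.448, 0.624 and 0.435 FPKM at prepuberty, 0.573, 0.572 and 0.679 FPKM at puberty, and 0.704, 0.607 and 0.462 FPKM at postpuberty. It was the steadiest of the members, with a coefficient of variation of 18.7% over the 8 libraries, and Puberty 2 lay within the range of the other animals. This held for its summed transcripts only. Its transcript of highest mean ranged from 0.0417 to 0.704 FPKM over the 8 libraries and was listed at 0 in Puberty 2. Another of its transcripts ranged from 0 to 0.531 FPKM and had 0.572 FPKM in Puberty 2.

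Among the CaV2 pores, CACNA1B, the N-type channel, had 1.21, 0.960 and 0.358 FPKM at prepuberty, 0.343, 0.770 and 0.411 FPKM at puberty, and 0.961, 1.14 and 0.559 FPKM at postpuberty. CACNA1A, the P/Q-type channel known from Purkinje cells and fast synapses, had 0.0408, 2.26 and 1.17 FPKM at prepuberty, 0.0137, 0.231 and 0.0679 FPKM at puberty, and 0.0793, 0.0349 and 0.0226 FPKM at postpuberty. CACNA1A was above 0.5 FPKM in Prepuberty 2 and Prepuberty 3 and in none of the other 7 libraries, and Prepuberty 1 lay within the range of the later stages.

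The alpha2delta subunits raise the number of calcium channels at the membrane, and CACNA2D1 and CACNA2D2 bind gabapentin. CACNA2D4 aside, they shared the class almost evenly over the 8 libraries, with 35.5% for CACNA2D2, 33.7% for CACNA2D1 and 30.7% for CACNA2D3. This split also depended on summing transcripts, since with only the highest transcript of each gene the shares were 14.3%, 36.0% and 49.5%. CACNA2D2 had 1.26, 5.62 and 3.95 FPKM at prepuberty, 6.32, 1.76 and 3.47 FPKM at puberty, and 4.23, 9.25 and 4.49 FPKM at postpuberty. CACNA2D1 had 3.34, 9.02 and 3.53 FPKM at prepuberty, 3.57, 1.12 and 4.11 FPKM at puberty, and 3.77, 5.26 and 4.07 FPKM at postpuberty. The order of the 3 genes changed between animals, since each was the highest of the class in 2 or 3 of the 8 libraries. CACNA2D3 was again lowest in Prepuberty 1, Postpuberty 1 and Puberty 2, at 0.525, 0.604 and 0 FPKM, against 2.84 to 9.05 FPKM in the other libraries.

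The CaV beta subunits are cytoplasmic proteins that bind the pore and bring it to the membrane. CACNB1, best known from skeletal muscle, had 6.79, 16.9 and 10.1 FPKM at prepuberty, 10.98, 6.10 and 8.21 FPKM at puberty, and 5.44, 11.6 and 11.4 FPKM at postpuberty. CACNB3, a subunit of neuronal channels, had 8.29, 13.4 and 6.68 FPKM at prepuberty, 6.83, 4.57 and 9.08 FPKM at puberty, and 6.43, 9.34 and 7.78 FPKM at postpuberty. They were not separated in level, since CACNB1 was above CACNB3 in 5 of the 8 libraries. CACNB4 ranged from 0.115 to 4.90 FPKM over the 8 libraries, with its highest value in Postpuberty 1, and was listed at 0 in Puberty 2.

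The gamma family holds proteins of calcium channels and, more often in brain, transmembrane regulators of AMPA-type glutamate receptors (TARPs). CACNG7, a TARP relative, held 63.3% of the class and was its highest gene in all 8 libraries. It had 22.8, 45.9 and 34.2 FPKM at prepuberty, 33.6, 16.5 and 32.1 FPKM at puberty, and 30.7, 43.6 and 31.2 FPKM at postpuberty. CACNG4 had 7.97, 6.54 and 7.62 FPKM at prepuberty, 6.90, 5.38 and 6.31 FPKM at puberty, and 9.97, 6.88 and 5.08 FPKM at postpuberty. These 2 genes varied little, with coefficients of variation of 21.5% and 19.98% over the 8 libraries. CACNG3, another TARP, varied more, with 15.3 FPKM in Prepuberty 2 and 1.27 to 4.22 FPKM in the other 7. CACNG7, CACNG8 and CACNG6 are neighbours on chromosome 14 (chr14:62298348 to chr14:62377047) and had means of 34.3, 0.531 and 0.0151 FPKM, so neighbours differed widely in level.

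In the order of means over the 8 libraries, CACNG7 (34.3 ± 7.38 FPKM) lay above SCN4B (24.6 ± 15.5), SCN2B (23.1 ± 17.1), SCN3B (14.2 ± 10.3), CACNB1 (10.2 ± 3.53) and CACNB3 (8.48 ± 2.27), each as mean ± SD with n = 8. SCN2B lay above SCN3B in 8 of 8 libraries, and CACNG7 above SCN4B in 7 of 8. SCN4B against SCN2B, CACNB1 against CACNB3 and CACNB3 against CACNG4 kept their order in 5 of 8 libraries each, and CACNG4 against CACNG2 in 4 of 8, so these neighbours were not separated beyond the spread between animals.

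**Figure D2:**
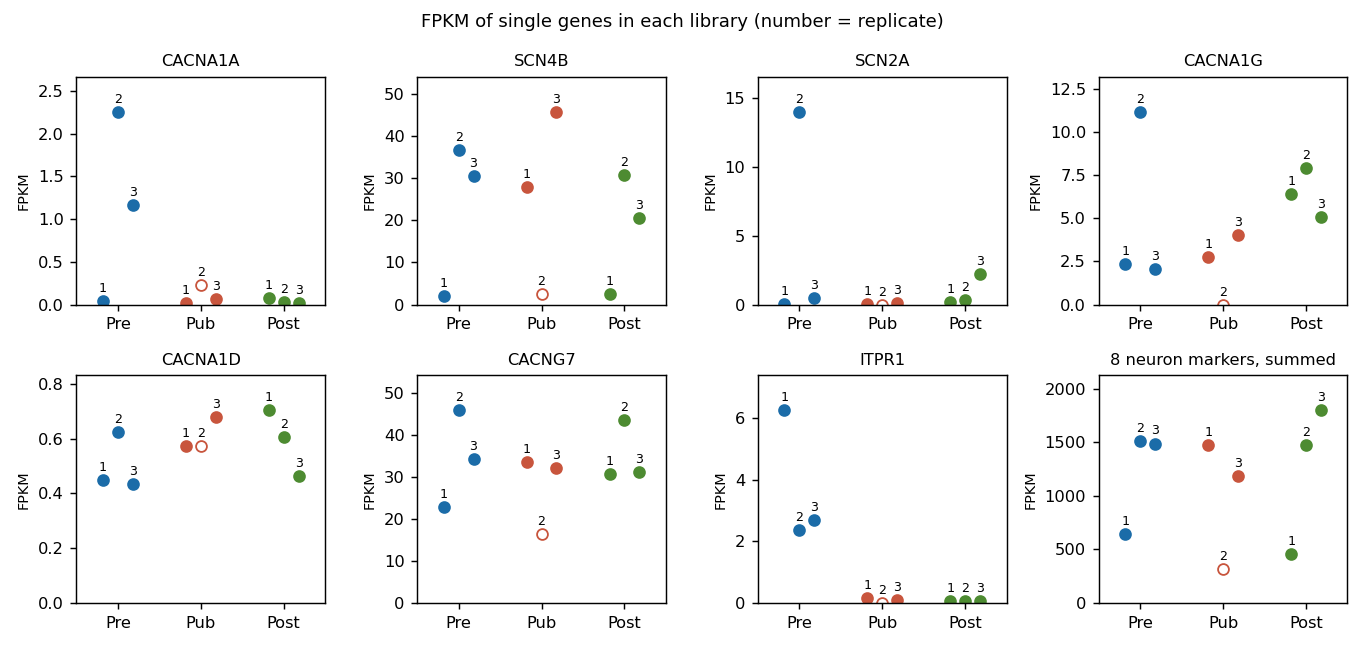
FPKM (vertical axes, starting at 0) of 6 subunit genes, of ITPR1 and of 8 summed neuron markers in each library, by stage (Pre, prepuberty; Pub, puberty; Post, postpuberty; the number is the replicate and the open circle is Puberty 2). SCN4B and the neuron markers are low in Prepuberty 1, Puberty 2 and Postpuberty 1, CACNA1D lies between 0.435 and 0.704 in all 9 libraries, and ITPR1 is at 2.37 or above only at prepuberty.

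The members varied widely between animals. The median coefficient of variation over the 8 libraries was 66.8% for the 28 members kept without Puberty 2, beside 25.7% for all 14209 genes kept. Prepuberty 2 had the highest value of the 8 libraries for 15 of the 28 members (53.6%), and for 22.1% of all genes. Prepuberty 1 had the lowest value for 11 of the 28 members (39.3%), and for 16.8% of all genes. Both extremes were therefore in the same stage. Puberty 2 lay below all 8 other libraries for 17 of the 29 members kept (58.6%), and for 51.9% of all 14238 genes, and it listed 9 of the 29 at 0 (31.03%), beside 7.43% of all genes.

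The summed FPKM of 35 of the members was 81.0, 319 and 148 at prepuberty, 173, 49.5 and 168 at puberty, and 115, 209.7 and 149.9 at postpuberty. It was highest in Prepuberty 2 and Postpuberty 2, where 5 oligodendrocyte markers (among them MBP) summed to 3527 and 2841 FPKM. Among the 8 libraries it was lowest in Prepuberty 1 and Postpuberty 1, where the same markers summed to 9631 and 9181 FPKM, against 5423 to 9024 FPKM in the other 4. In Puberty 2, where the members summed lowest of all 9, these markers summed to 9633 FPKM. MBP made up most of this sum in all libraries but Postpuberty 2, and had 2426 FPKM in Prepuberty 2 and 1112 FPKM in Postpuberty 2. The other 4 markers (MOG, MAG, MOBP and CNP) summed to 1101 FPKM in Prepuberty 2, the lowest of the 9 libraries, but to 1729 FPKM in Postpuberty 2, within the 1328 to 2167 FPKM of the other 6 libraries besides Puberty 2. The neuron markers summed to 1516 FPKM in Prepuberty 2, 1490 in Prepuberty 3, and 1477 in both Puberty 1 and Postpuberty 2. They were highest, at 1802 FPKM, in Postpuberty 3, where the members summed to 149.9 FPKM. Of the 8 neuron markers, 2 were highest in Prepuberty 2, as SYT1 was at 117 FPKM in Prepuberty 2 and 3.13 to 69.1 FPKM elsewhere, and SNAP25 at 558 FPKM and 57.0 to 448 FPKM. The other 6 were highest in another library, and NEFM was at 238 FPKM in Prepuberty 2 and 565 FPKM in Postpuberty 3. Summed SCN2B, SCN3B and SCN4B were 8.99% of the neuron marker sum in Prepuberty 2, 3.83% in Prepuberty 3 and 1.94% in Prepuberty 1. The part of the cell makeup of the tissue pieces in these levels was not tested.

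For the comparison of stages, limma was fitted to log2(FPKM + 1) over all genes kept. A gene was called where its Benjamini-Hochberg adjusted p was below 0.05 and its log2 fold change reached 1 in either direction. No member passed this test. Between prepuberty and puberty 0 of 29 members were called by limma, beside 0% of 14238 genes, and 1 member (CACNA1A) had an unadjusted p below 0.05, beside 1.82% of genes. Between puberty and postpuberty limma called 0 of 29, beside 0% of genes, and 0 members had an unadjusted p below 0.05, beside 2.14% of genes. Between prepuberty and postpuberty limma called 0 of 29, beside 0% of genes, and 1 member (again CACNA1A) had an unadjusted p below 0.05, beside 0.815% of genes. CACNA1A was kept for testing only through prepuberty, the stage where it was high, so its p-values are no support for a change. Without Puberty 2 the calls were again 0 of 28 in each comparison, beside 0% of 14209 genes, with 0, 0 and 1 members at an unadjusted p below 0.05, beside 1.66%, 2.11% and 1.87% of genes. On simulated data, 200 of 14238 genes were changed by a log2 fold change of 2 between prepuberty and puberty. They were drawn only from genes with a mean log2(FPKM + 1) above 2. The same test recovered 48% of them with 9 libraries and 73.5% without Puberty 2, so changes of that size could be missed. For members below that level, such as CACNA1A, these shares give no recovery.

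For CACNA1A, whose values in each library are given above, prepuberty minus puberty was 0.82 ± 0.36 on the log2(FPKM + 1) scale (SE, limma adjusted p = 0.838), and prepuberty minus postpuberty was 0.90 ± 0.36 (SE, limma adjusted p = 1). The stages overlapped through Prepuberty 1, and only the prepuberty mean (1.16 FPKM, against 0.104 at puberty and 0.0456 at postpuberty) reached the filter. Without Puberty 2 the log2 differences were 0.90 ± 0.42 and 0.90 ± 0.38 (SE, limma adjusted p = 1 for both). Without Prepuberty 2 they were 0.45 and 0.52, and without Prepuberty 1 they were 1.27 and 1.35.

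SCN2A had the largest difference of the members between prepuberty and puberty, at 1.45 ± 0.88 (SE, limma adjusted p = 0.838), or 1.43 ± 1.08 without Puberty 2 (SE, limma adjusted p = 1), with overlapping stages. It was named for its size after the values were seen and was 0.25 without Prepuberty 2 and 2.19 without Prepuberty 1.

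Among the members whose stages did not overlap, CACNA1G had the largest difference. Its puberty libraries were below its postpuberty libraries by 1.47 ± 0.68 (SE) on the log2(FPKM + 1) scale, with a limma adjusted p of 0.780. Without Puberty 2, in which the gene was listed at 0, the difference was -0.76 ± 0.57 (SE, limma adjusted p = 1). For its transcript of highest mean alone, with all 9 libraries, the difference was -0.42 ± 0.36 (SE, limma adjusted p = 0.781). SCN2A also lay lower in all 3 puberty libraries than in the postpuberty libraries, with a difference of -0.73 ± 0.88 (SE, limma adjusted p = 0.783), or -0.71 ± 1.08 without Puberty 2 (SE, limma adjusted p = 1). Without Postpuberty 3, which had 2.25 FPKM, the difference of SCN2A was -0.27. These 2 of 29 members without overlap stood beside 5.25% of all genes that were lower at puberty without overlap. CACNA1B joined them without Puberty 2, at -0.44 ± 0.25 (SE, limma adjusted p = 1), giving 3 of 28 members beside 7.9% of all genes. No member was higher at puberty than at postpuberty without overlap, beside 2.07% of genes, or 6.19% without Puberty 2. In the other 2 comparisons the stages overlapped for all members, with and without Puberty 2. There the share of genes without overlap was 2.84% higher and 2.32% lower for prepuberty against puberty (4.55% and 7.16% without Puberty 2), and 1.4% higher and 3.17% lower for prepuberty against postpuberty (1.37% and 3.16% without Puberty 2).

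The members as a group had a median log2 fold change of 0.27 for prepuberty minus puberty, beside 0.14 for all genes, and of -0.27 for puberty minus postpuberty, beside -0.19 for all genes. Without Puberty 2 these medians were 0.01 and 0.0004, beside -0.02 and -0.03 for all genes. Without Prepuberty 2 the median for prepuberty minus puberty was also 0.01, with 15 of 29 members higher at prepuberty, beside 0.10 and 59.5% for all genes. With the level of the neuron markers as a covariate and all 9 libraries, the 2 medians were 0.13 and -0.16, beside 0.09 and -0.14 for all genes. For prepuberty minus postpuberty, which holds no puberty library, the median was 0.02 with 15 of 29 members higher at prepuberty, beside -0.05 and 37.8% for all genes. This count moved with single libraries, to 4 of 29 without Prepuberty 2 (beside 38.1% of all genes), 9 of 29 without Postpuberty 1 (beside 39.6%) and 21 of 28 without Postpuberty 2 (beside 38.8%). With all 9 libraries, 22 of 29 members had a lower mean at puberty than at prepuberty, beside 63.2% of all genes. This direction turned when limma array weights were given to the same 9 libraries, with 8 of 29 members higher at prepuberty, beside 38.2% of all genes, and a median of -0.15. Without Puberty 2 the mean was lower at puberty for 15 of 28 members, beside 44.7% of all genes. The pooled SD between animals of a stage, with all 9 libraries, was 0.48 for the median log2 level of the members, larger than each of these medians. It is a spread of single libraries and not the SE of a difference between stage means.

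**Figure D3:**
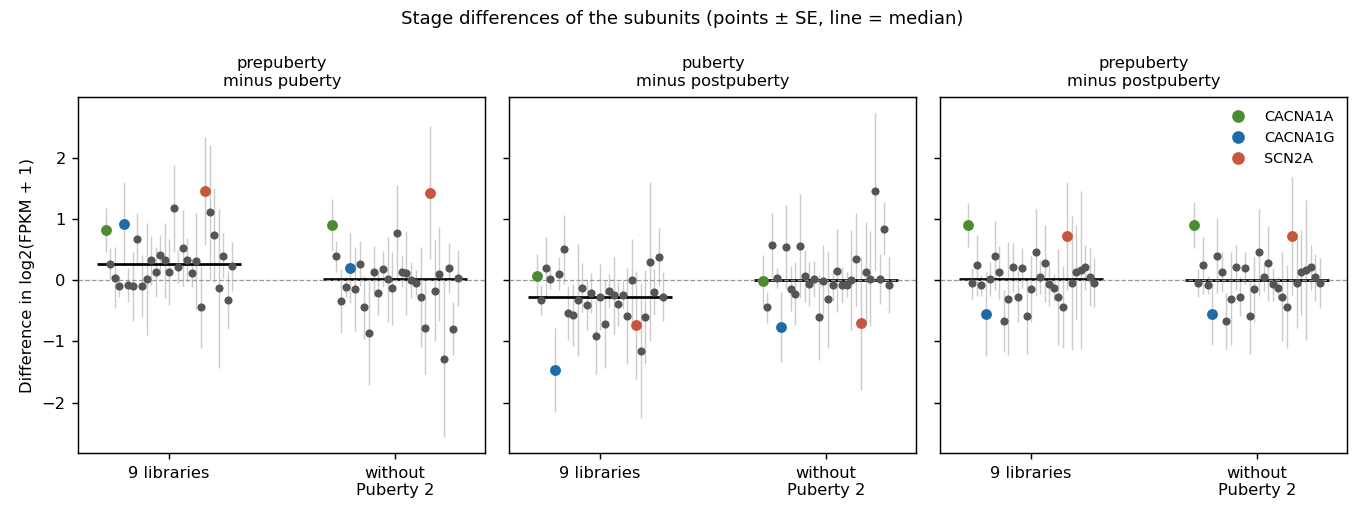
Differences in log2(FPKM + 1) between stages for the members kept (points, with SE as grey bars, in alphabetical order), with all 9 libraries and without Puberty 2, and their median (black line). The medians of 0.27 and -0.27 in the comparisons with puberty were 0.01 and 0.0004 without Puberty 2, and CACNA1A, CACNA1G and SCN2A are marked in colour.

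A list of 35 genes whose proteins anchor, modulate or work beside these channels was read in the same fit. Of these, 31 were kept, or 33 without Puberty 2, and 0 were called by limma in any comparison, with 4, 2 and 3 at an unadjusted p below 0.05 (prepuberty against puberty, puberty against postpuberty, and prepuberty against postpuberty), beside 1.82%, 2.14% and 0.815% of all genes. Without Puberty 2 there were 6, 1 and 5 of 33, beside 1.66%, 2.11% and 1.87% of all genes. ITPR1, the IP3 receptor that releases calcium from the endoplasmic reticulum, differed most. It had 6.25, 2.37 and 2.68 FPKM at prepuberty, 0.172, 0.0111 and 0.0811 FPKM at puberty, and 0.0607, 0.0758 and 0.0726 FPKM at postpuberty. The prepuberty animals did not overlap with those of either later stage. The log2 difference was 2.04 ± 0.29 against puberty (SE, unadjusted p = 5.34e-05, limma adjusted p = 0.760) and 2.07 ± 0.29 against postpuberty (SE, unadjusted p = 4.91e-05, limma adjusted p = 0.699). Without Puberty 2 they were 1.99 ± 0.32 and 2.07 ± 0.29 (SE, limma adjusted p = 1 for both). Under limma array weights its adjusted p against puberty was 0.0370. ITPR1 was kept for testing only through prepuberty, the stage where it was high, so its p-values are no support for a change.

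The sodium leak channel complex, which sets resting excitability, had 5 genes on the list and 0 were called by limma. Its subunit NALF1 had 0.434, 5.08 and 1.92 FPKM at prepuberty, 0.437, 0 and 0.0652 FPKM at puberty, and 0.0427, 0.0884 and 0.313 FPKM at postpuberty. The log2 difference of prepuberty was 1.35 ± 0.45 against puberty (SE, limma adjusted p = 0.838) and 1.37 ± 0.45 against postpuberty (SE, limma adjusted p = 1), and without Prepuberty 2 they were 0.83 and 0.84. Without Puberty 2 they were 1.25 ± 0.53 and 1.37 ± 0.48 (SE, limma adjusted p = 1 for both). NALF1, too, was kept for testing only through prepuberty, the stage where it was high, so its differences are no support for a change. UNC79, a large scaffold of the same complex, had 0.0809, 0.210 and 1.13 FPKM at prepuberty, 1.84, 0 and 1.22 FPKM at puberty, and 1.26, 1.98 and 1.33 FPKM at postpuberty. Without Puberty 2 its prepuberty libraries all lay below those of puberty, by a log2 difference of -0.83 ± 0.32 (SE, limma adjusted p = 1), whereas with it the difference was -0.39 ± 0.41 (SE, limma adjusted p = 0.838), and without Puberty 1 it was -0.081.

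Of the modulators of calcium channels, STAC, an adaptor that slows the inactivation of L-type channels, had 2.55, 0.683 and 0.936 FPKM at prepuberty, 1.19, 0.357 and 0.905 FPKM at puberty, and 2.37, 6.86 and 2.03 FPKM at postpuberty. Puberty lay below postpuberty without overlap, by -1.28 ± 0.43 (SE, limma adjusted p = 0.780), and by -1.08 ± 0.48 without Puberty 2 (SE, limma adjusted p = 1). Prepuberty minus postpuberty was -0.93 ± 0.43 both with and without Puberty 2 (SE, limma adjusted p = 1 for both). Without Postpuberty 2, which had 6.86 FPKM, these differences of STAC were -0.84 and -0.50. RIMS1, a scaffold of presynaptic calcium channels, ranged from 0.134 to 7.16 FPKM over the 8 libraries, and its log2 difference of puberty minus postpuberty was -1.26 ± 0.76 (SE, limma adjusted p = 0.780), or -0.84 ± 0.86 without Puberty 2 (SE, limma adjusted p = 1). STAC2 ranged from 3.20 to 15.8 FPKM, and the same difference was 0.61 ± 0.56 (SE, limma adjusted p = 0.780), or 0.77 ± 0.65 without Puberty 2 (SE, limma adjusted p = 1). Without Postpuberty 1 the difference of STAC2 was 0.093 and that of RIMS1 was -0.82, and RIMS1 was at -1.93 without Puberty 3.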

How the data were processed

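Hypothalamic RNA of 9 sheep was sequenced after poly-A selection. The authors trimmed reads with Trimmomatic (0.32 in the submitters' processing notes), aligned them with HISAT2 to the ARS-UI_Ramb_v3.0 genome, and used StringTie to assemble and quantify transcripts. The deposited values are FPKM for each transcript (their file is labelled as raw counts), and the authors' own count-based tests were not used here. RefSeq symbols matched 76682 of 76684 NM or XM rows, and 22600 assembled rows without a gene name, with 12.4 to 17.4% of the summed FPKM, were left out of the gene sums.

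FPKM was summed per gene. Genes with a mean of at least 0.5 FPKM in a stage were fitted with limma 3.58.1 (R 4.3.3) on log2(FPKM + 1) with a variance trend, 3 stages and all 9 libraries in 1 fit. No scaling was applied beyond FPKM, and log2 differences understate changes of low genes. The fit was tested on simulated data. Python 3.11.15 with pandas 2.3.3, numpy 2.4.6 and matplotlib 3.10.9 was used for summaries. An edgeR test of counts was named in the study's methods, and limma was used because FPKM values are not counts.

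Members with values for each library are the 2 most abundant of each class, those whose stages did not overlap without Puberty 2, and CACNA1D. Partner genes are the 3 with the largest difference per comparison in the fit without Puberty 2. SCN8A, SCN9A, SCN2B, SCN3B, CACNA1H, CACNA2D3, CACNB4 and CACNG3 were chosen after their values were seen. The members, lists and tests were chosen with earlier results of these data known. Replicates are separate animals. The values of 2 members, which entered the fits and counts, are not reported here, and sums are over the other 35.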

Additional observations from a re-analysis of the deposited data

How the results depend on the processing

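The count of members called was 0 in each comparison under each of the 29 alternatives run (pseudocount of 0.1, other filters, scalings, variance models, a neuron marker covariate, the fold minimum, single transcripts, and leaving out each library). The count of all genes called was 0 under the same alternatives, except under limma array weights, which gave 4 genes between prepuberty and puberty and 1 between puberty and postpuberty, with a weight of 0.0653 for Puberty 2. Under these weights the members' medians were -0.15 for prepuberty minus puberty and -0.17 for prepuberty minus postpuberty, with 8 and 5 of 29 members higher at prepuberty (beside 38.2% and 29.7% of all genes). ITPR1 had a limma adjusted p of 0.0370 under them for prepuberty against puberty (0.0370 to 1 over its alternatives). Against postpuberty its lowest limma adjusted p over the alternatives was 0.0581. Equal totals moved the median of all genes from 0.14 to 0.26 for prepuberty minus puberty. The number of members not overlapping between prepuberty and puberty was 1 with equal totals and 1 with upper quartile scaling, and 1 under each of these also without Puberty 2, beside 4.85%, 5.61%, 11.2% and 12.6% of all genes. Leaving out 1 library gave 0 to 3 between prepuberty and puberty (3 without Prepuberty 1 or Puberty 1, beside 12.3% and 14.4% of all genes), 2 to 7 between puberty and postpuberty (7 without Postpuberty 3, beside 15.5%), and 0 to 5 between prepuberty and postpuberty (5 without Prepuberty 2, beside 17.3%). Leaving out 1 library, the members' median ranged from 0.01 (without Puberty 2) to 0.56 (without Prepuberty 1) for prepuberty minus puberty, from -0.44 (without Postpuberty 1) to 0.0004 (without Puberty 2) for puberty minus postpuberty, and from -0.30 (without Prepuberty 2) to 0.26 (without Prepuberty 1) for prepuberty minus postpuberty. With the highest transcript of each gene and all 9 libraries, CACNA1G held 25.8% and CACNA2D2 14.3% of their classes (28.5% and 14.3% without Puberty 2), and SCN2A had a puberty to postpuberty difference of 0, since that transcript was listed at 0 in these 6 libraries. Of the 37 members, 12 had at least 0.5 FPKM in every library. With the neuron marker covariate and without Puberty 2, the members' median was 0.07 for prepuberty minus puberty (17 of 28 higher, beside 44.5% of all genes). For puberty minus postpuberty it was -0.12 in that fit (8 of 28 higher, beside 45.1%). With the replicate number as a block, 0 members and 0 genes were called. The block without Puberty 2 turned the members' medians to -0.19 for prepuberty minus puberty (8 of 28 higher, beside 45.1% of all genes) and 0.19 for puberty minus postpuberty (21 of 28 higher, beside 47.1%). The labels do not name the replicate numbers as pairs of animals. Deviations from the stage mean had correlations of -0.31 to 0.51 between same-numbered libraries of 2 stages. Between differently numbered libraries the correlations were -0.56 to 0.31. Such deviations sum to 0 within a stage, so these correlations cannot decide whether the numbers pair animals. Fits without Puberty 2 under a block, other scalings or no fold minimum, and sums with NR and XR rows, were chosen after seeing the data. FPKM gives no counts, so intervals of single values are unknown and the number of animals limits the precision.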
